A study of Mus musculus with 15 samples.

Results

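The scavenger receptors for modified lipoproteins are described here in aortic macrophages of atherosclerosis-prone mice. The members are the 9 genes Cd36, Scarb1, Scarb2, Msr1, Marco, Colec12, Olr1, Stab1 and Cd5l, each found by its symbol as 1 row among the 47729 features of the count table, and all 9 had counts. RNA was measured by Smart-Seq2, a low-input method that amplifies cDNA by PCR before the sequencing library is made. The 10 columns labelled Olfr2+ and the 5 labelled Olfr2- hold cells sorted as F4/80+ CD64+ from aorta, divided by the olfactory receptor Olfr2. Every mouse in both groups was female and Apoe-deficient (written Apoe dko in one label and Apoe-/- in another) and had eaten a high fat (Western) diet for 4 weeks, so neither group is a lean or Apoe-competent control. A sort held between 100 and 200 cells and came from a suspension of 4 pooled aortas. The sorts are called technical replicates, nothing places them in separate animals, and p-values therefore rest on the differences among these samples alone, which may be technical. Columns that share the number in their title were summed, which gave Olfr2+ samples 2, 3 and 4 against Olfr2- samples 1, 3 and 4 (n = 3 each).

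Macrophages take up low density lipoprotein (LDL) that has been oxidized or acetylated through scavenger receptors rather than through the LDL receptor. Cholesterol inside the cell does not shut this uptake down, and cells that go on loading lipid become the foam cells of an atherosclerotic plaque. The receptors are a functional class and not 1 protein family. Cd36, Scarb1 and Scarb2 belong to the class B family, Msr1, Marco and Colec12 are trimeric receptors with a collagen-like stalk, Olr1 (LOX-1) is a C-type lectin-like receptor, Stab1 is a large multidomain receptor, and Cd5l is a secreted protein of the scavenger receptor cysteine-rich family.

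Promoters of 4 members are printed because their transcripts span the measured range. Cd36 and Scarb2 were high in nearly every column, Olr1 was high in a single column, and Marco was at or near 0. The sequences are those of RefSeq for GRCm38.p6 and run from 250 bases before to 50 bases after the annotated start of transcription, read on the gene's own strand. They lie on the minus strand at chr5:17835847-17836146 for Cd36, chr5:92505608-92505907 for Scarb2, chr6:129507116-129507415 for Olr1 and chr1:120504975-120505274 for Marco. Capitals mark matches, on either strand, to GAGGAA (a core of sites for PU.1, the lineage factor of macrophages), TGANTCA (AP-1) and AGGTCA (core letters of sites for nuclear receptors such as PPAR gamma). A match on the opposite strand appears as its reverse complement.
Cd36: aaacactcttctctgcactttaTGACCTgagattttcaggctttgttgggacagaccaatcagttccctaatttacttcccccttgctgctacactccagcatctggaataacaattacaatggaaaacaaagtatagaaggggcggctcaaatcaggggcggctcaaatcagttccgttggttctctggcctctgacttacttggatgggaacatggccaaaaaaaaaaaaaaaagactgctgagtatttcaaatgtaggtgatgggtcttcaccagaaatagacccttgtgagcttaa
Scarb2: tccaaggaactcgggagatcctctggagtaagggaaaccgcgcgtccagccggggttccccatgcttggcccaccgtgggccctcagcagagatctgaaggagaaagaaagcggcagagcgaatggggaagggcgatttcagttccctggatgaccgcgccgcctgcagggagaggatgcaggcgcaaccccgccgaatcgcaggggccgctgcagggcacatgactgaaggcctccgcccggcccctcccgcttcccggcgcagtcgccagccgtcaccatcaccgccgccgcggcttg
Olr1: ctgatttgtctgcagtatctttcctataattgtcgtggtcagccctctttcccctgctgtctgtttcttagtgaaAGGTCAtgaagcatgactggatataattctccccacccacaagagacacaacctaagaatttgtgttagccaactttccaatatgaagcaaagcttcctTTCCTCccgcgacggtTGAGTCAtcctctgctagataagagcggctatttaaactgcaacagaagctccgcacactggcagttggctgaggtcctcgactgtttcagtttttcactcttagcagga
Marco: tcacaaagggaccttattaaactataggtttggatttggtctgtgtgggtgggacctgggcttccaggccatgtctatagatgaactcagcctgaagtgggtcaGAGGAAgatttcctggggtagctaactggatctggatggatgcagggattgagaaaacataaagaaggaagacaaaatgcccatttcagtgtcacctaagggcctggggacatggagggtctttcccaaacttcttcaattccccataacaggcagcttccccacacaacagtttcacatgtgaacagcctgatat

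Cd36 held 1 AGGTCA match, on the opposite strand with its first base 228 bases before the start. Olr1 held all 3 motifs, AGGTCA at 175, GAGGAA at 76 on the opposite strand and TGANTCA at 60 bases before the start. Marco held 1 GAGGAA match at 146 bases before the start, and none of these letters was in the Scarb2 window. Among the other members in the RefSeq table, Stab1 and Cd5l each held 1 GAGGAA match, at 30 bases and, on the opposite strand, at 66 bases before the start. No match overlapped another. TATAAA was also searched and was in none of the 6 members' windows. Over 32851 promoters of the same length, 28.3% held GAGGAA, 7.81% TGANTCA, 16.3% AGGTCA and 13.6% TATAAA, so a single match is common, and it describes letters rather than a bound site. Msr1, Scarb1 and Colec12 are named only.

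The columns fall into 2 depth sets that the labels do not mention. Of the Olfr2+ columns, 7 (2A, 2B, 2C, 2D, 3A, 3B and 3C) held 76.0 to 95.6 M counts (M, 1000000), with 94.6 to 97.5% of them on protein-coding genes. The other 3 Olfr2+ columns (3D, 4A and 4B) held 29.9 to 37.6 M, with 78.5 to 80.4% on protein-coding genes, and the 5 Olfr2- columns held 30.5 to 53.2 M, with 79.5 to 85.6%. Values are therefore given over all columns and again for the 8 columns under 60 M. The sort marker Adgre1 (F4/80) had a CPM (counts per 1000000 of the column total) of 123 to 312 in the Olfr2+ columns over 60 M, 46.0 to 84.3 in those under 60 M and 9.48 to 235 in the Olfr2- columns. Fcgr1 (CD64) had 0.544 to 103, 0.772 to 3.43 and 4.18 to 19.96 CPM in the same order. All 16 macrophage identity markers were detected in every column. Olfr2 itself had 1, 9 and 8 counts in the summed Olfr2+ libraries and 76, 34 and 35 counts in the summed Olfr2- libraries, which goes against the labels, so the directions below are between libraries labelled Olfr2+ and libraries labelled Olfr2-.

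Fold changes were fitted with edgeR after TMM scaling, whose factors were 0.485, 0.705 and 0.868 in Olfr2+ samples 2, 3 and 4 and 1.66, 1.34 and 1.52 in Olfr2- samples 1, 3 and 4. A fitted fold change is thus more positive than the plain ratio of CPM. Over all genes tested the median log2 fold change was 0.24 with TMM and -0.88 with library totals alone, a shift of -1.12. Each member is also given relative to the median of its fit, and a higher or lower level of 1 receptor is a level per RNA in the library. In bulk samples fewer cells of a type and less RNA per cell cannot be told apart.

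None of the 9 receptors passed an adjusted p of 0.05 between libraries labelled Olfr2+ and Olfr2-, in either direction. Over all 24362 genes tested, 273 (1.12%) were called higher and 112 (0.460%) lower in Olfr2+, so 0 of 9 is near the background share. With library totals the split of calls was 86 higher and 310 lower, and 0 of the 9 receptors were among them. All 9 had passed the filter on low counts. The median log2 fold change of the 9 was 1.86, against 0.24 for all genes, and 8 of 9 were positive. With library totals the median was 0.54 against -0.88, and 5 of 9 were positive. A median above that of all genes was not particular to the receptors. Over all columns the macrophage identity list had 2.37 and the lipid handling list 1.93, while the adipocyte and dendritic cell lists had -1.11 and -0.036. When a mean of 10 CPM was required, 6 receptors were tested, and the median of all genes was 0.17. Cd36 (-0.63), Msr1 (-1.49) and Scarb1 (0.12) lay below it, and Scarb2 (0.62), Olr1 (2.24) and Colec12 (2.79) above it. At an unadjusted p under 0.05, 1 of the 9 (Colec12) passed in edgeR, beside 7821 of all 24362 genes tested. DESeq2 called 1 of 9, again Colec12, beside 6457 of the 31189 genes to which it gave an adjusted p. In neither fit does 1 of 9 exceed the share of all genes. With limma-voom 0 of the 9 and 0 of all genes were called.

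**Figure D1:**
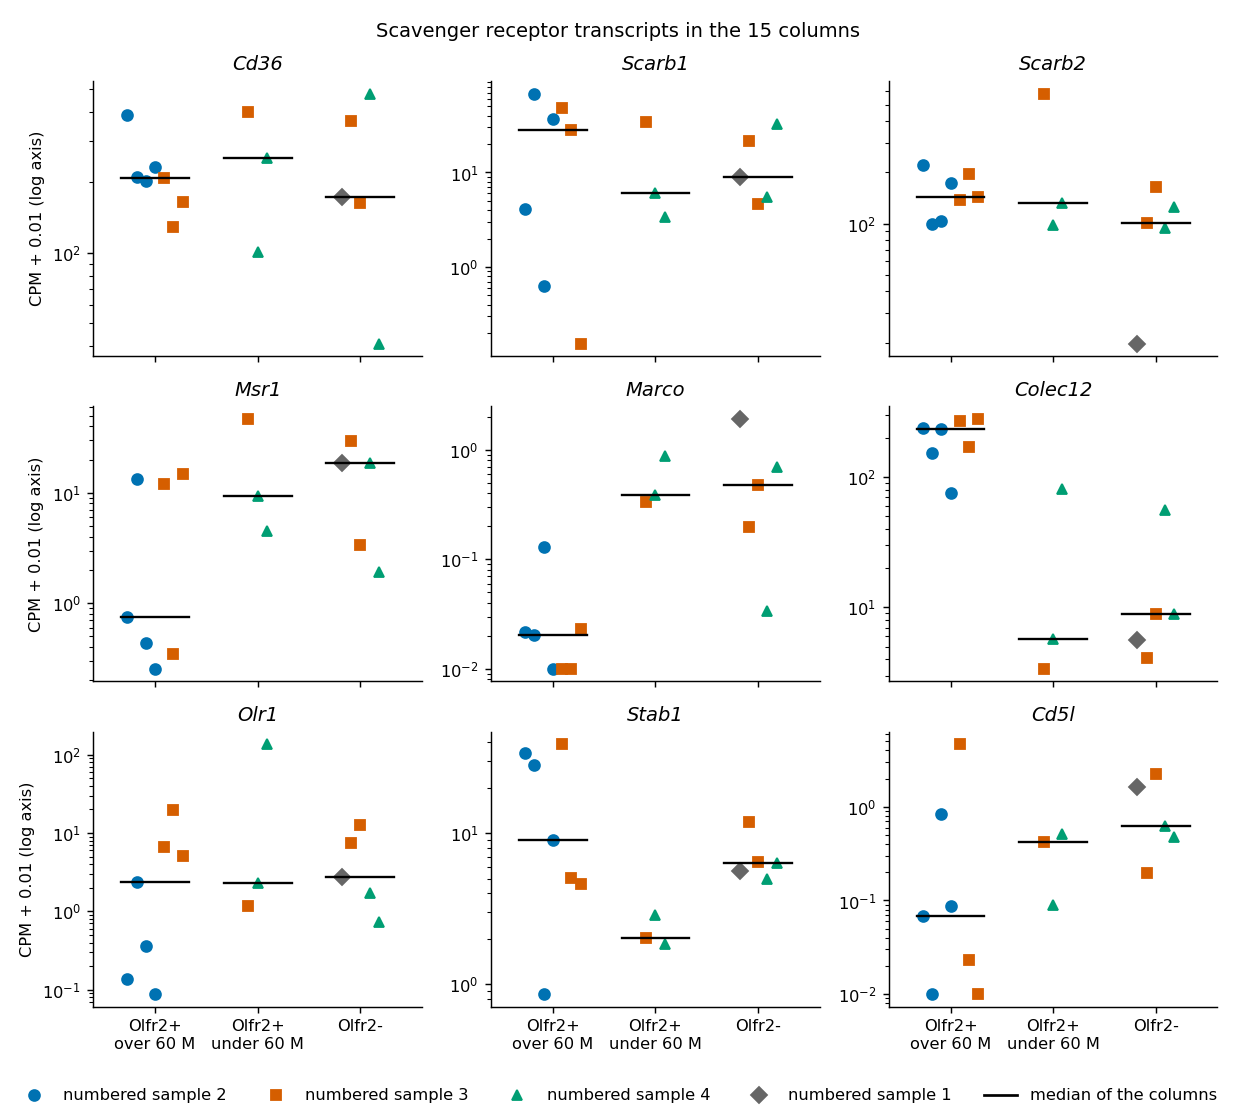
Level of each receptor in the 15 columns, in CPM + 0.01 on a log axis that differs between panels. Symbols give the numbered sample and lines the median of the columns, for Olfr2+ columns over 60 M counts (7), Olfr2+ columns under 60 M (3) and Olfr2- columns (5). Colec12 lies at 75.3 CPM or more in the first set and overlaps between the other two, while Cd36 and Scarb2 overlap in all 3 sets.

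Cd36 and Scarb2 were the highest of the class B receptors, and Scarb1 was lower. Cd36, which binds oxidized LDL and long-chain fatty acids, had 256, 198 and 169.6 CPM in Olfr2+ samples 2, 3 and 4, against 173, 289 and 289 CPM in Olfr2- samples 1, 3 and 4. The samples overlapped, with a mean of 208 ± 44.2 CPM in Olfr2+ and 251 ± 67.1 CPM in Olfr2- (SD, n = 3 each). The log2 fold change of Cd36 was 0.97 (SE 0.90), 0.73 above the median of all genes, with an edgeR adjusted p of 0.419. With library totals it was -0.27, which reverses the sign, though it was still 0.60 above the median of that fit. In the fit on genes with a mean of at least 10 CPM it was -0.63, below the median of 0.17 there. Over single columns Cd36 ran from 101 to 400.4 CPM (median 210.1) in Olfr2+ and from 41.0 to 479.6 CPM (median 173) in Olfr2-. The widest gap was inside Olfr2- sample 4, whose columns had 479.6 and 41.0 CPM.

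Scarb2 (LIMP-2) sits in the lysosomal membrane and carries glucocerebrosidase to the lysosome. It had 148, 211 and 114 CPM in Olfr2+ samples 2, 3 and 4, against 19.8, 125 and 107 CPM in Olfr2- samples 1, 3 and 4. The 2 ranges overlapped, and Olfr2- sample 1 alone was far below the other 5 samples. Its log2 fold change was 2.06 (SE 1.03), 1.82 above the median of all genes, with an edgeR p of 0.0558 before and 0.163 after adjustment. In the columns under 60 M it was 2.70 (SE 1.15), with an edgeR p of 0.0313 before and 0.462 after adjustment. Without Olfr2- sample 1 the log2 fold change over all columns was 1.42, with an edgeR adjusted p of 0.399. Column 3D of Olfr2+, at 581.9 CPM, was the highest of the 15, and the other 9 Olfr2+ columns lay between 98.1 and 220.7 CPM.

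Scarb1 (SR-BI) exchanges cholesterol with high density lipoprotein. Olfr2+ samples 2, 3 and 4 had 28.2, 27.5 and 4.82 CPM of Scarb1, and Olfr2- samples 1, 3 and 4 had 9.05, 15.2 and 17.1 CPM. The Olfr2+ samples lay on both sides of the Olfr2- samples. For Scarb1 the log2 fold change was 1.86 (SE 1.35), with an edgeR adjusted p of 0.305. Columns of 1 sample differed more than the groups did. Olfr2+ sample 2 had 4.14, 68.5, 0.619 and 36.5 CPM in its 4 columns, and sample 3 had 48.5, 28.0, 0.145 and 34.4 CPM.

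Msr1 (SR-A1), the classic macrophage receptor for acetylated LDL, was low in both groups. It had 3.81, 13.8 and 7.18 CPM in Olfr2+ samples 2, 3 and 4, against 18.6, 19.7 and 11.4 CPM in Olfr2- samples 1, 3 and 4. The mean was 8.25 ± 5.07 CPM in Olfr2+ and 16.5 ± 4.53 CPM in Olfr2- (SD, n = 3 each), with an overlap between 11.4 and 13.8 CPM. The log2 fold change was 0.09 (SE 1.37) with TMM and -1.01 with library totals, and the edgeR adjusted p was 0.965 with TMM. In the columns under 60 M it was 1.46 (SE 1.44) with an edgeR adjusted p of 0.733. Of the 7 Olfr2+ columns over 60 M, 4 had 0.244 to 0.733 CPM and 3 had 12.0 to 14.7 CPM, with nothing in between. Both kinds of column occurred within sample 2 and within sample 3.

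Marco, a collagenous receptor of resident macrophages in lung, spleen and lymph node, was near the limit of counting. Olfr2+ samples 2, 3 and 4 held 13, 12 and 40 counts of Marco, against 58, 25 and 23 in Olfr2- samples 1, 3 and 4, which is at most 1.90 CPM in a sample. It had 0 counts in 3 columns, all Olfr2+ over 60 M, where 3 counts, the most that a count of 0 allows, are 0.0333, 0.0351 and 0.0388 CPM. In all, 7 of 15 columns were at or under 3 counts. Over all columns its log2 fold change came to -0.96 (SE 1.27) with an edgeR adjusted p of 0.577, and to 0.17 (SE 1.03) in those under 60 M.

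Colec12 (SRCL), a collectin with a carbohydrate recognition domain that also binds oxidized LDL, had the largest fold change of the 9 over all columns, but not in the columns under 60 M, where Olr1 (3.56) and Scarb2 (2.70) exceeded its 1.27 on the log2 scale. It had 174, 209.7 and 38.8 CPM in Olfr2+ samples 2, 3 and 4, against 5.64, 5.90 and 35.5 CPM in Olfr2- samples 1, 3 and 4. All 3 Olfr2+ samples lay above all 3 Olfr2- samples, though 38.8 and 35.5 CPM are close. Colec12 was the 1 member of 9 whose summed samples did not overlap. Over all genes tested, 6.21% lay wholly higher and 29.8% wholly lower in Olfr2+ in the same way. The mean was 141 ± 90.2 CPM in Olfr2+ and 15.7 ± 17.2 CPM in Olfr2- (SD, n = 3 each). The log2 fold change was 4.48 (SE 1.24), 4.24 above the median of all genes, with an edgeR p of 0.00115 before and 0.0568 after adjustment, so the difference did not pass. With library totals it was 3.16, 4.04 above the median of that fit, with an edgeR adjusted p of 0.0879. Of the 6 omissions of a sample, that of Olfr2+ sample 4 called it, with an edgeR adjusted p of 0.0476. The same omission called 1086 of all 29898 genes tested, 973 of them higher. It also took out the only Olfr2+ sample without columns over 60 M, so depth and label were then further from being told apart.

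Colec12 also differed between the depth sets. In the 7 Olfr2+ columns over 60 M it ran from 75.3 to 279 CPM (median 232), all above the 5 Olfr2- columns, at 4.11 to 55.9 CPM (median 8.89). Of all genes tested, 2.00% had these 7 columns all above the Olfr2- columns. The 3 Olfr2+ columns under 60 M had 3.37, 5.75 and 80.3 CPM and overlapped the Olfr2- columns. The highest of them, column 4B, also lay above the lowest column over 60 M, 2D at 75.3 CPM. The fit on only the columns under 60 M holds no column of Olfr2+ sample 2. There the log2 fold change of Colec12 was 1.27 (SE 1.56), 1.70 above the median of that fit, with an edgeR adjusted p of 0.787. Sample 3 has columns in both sets under 1 label, and Colec12 had 267, 169 and 279 CPM in 3A, 3B and 3C but 3.37 CPM in 3D. The deeper set holds Olfr2+ columns only, so over all columns depth and label cannot be told apart for Colec12.

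Olr1, a receptor for oxidized LDL best known from endothelial cells and also made by activated macrophages, was high in 1 column. Its sums were 0.750, 9.32 and 61.6 CPM in Olfr2+ samples 2, 3 and 4, against 2.72, 9.41 and 1.27 CPM in Olfr2- samples 1, 3 and 4. The Olfr2+ samples lay below, among and above the Olfr2- samples. Column 4B held 136 CPM while column 4A of the same sample held 2.32 CPM, and the remaining 13 columns ran from 0.0776 to 19.96 CPM. Its log2 fold change was 3.17 (SE 1.58) with an edgeR adjusted p of 0.161, and 3.56 (SE 1.73) with one of 0.485 under 60 M. Without Olfr2+ sample 4, which holds column 4B, it was 1.18, and without Olfr2- sample 3 it was 4.67, with edgeR adjusted p of 0.502 and 0.142.

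Stab1 (stabilin-1), which clears modified lipoproteins and matrix fragments in endothelial cells and alternatively activated macrophages, had a fold change that changed sign between fits. It had 17.9, 15.2 and 2.42 CPM in Olfr2+ samples 2, 3 and 4, against 5.61, 9.79 and 5.55 CPM in Olfr2- samples 1, 3 and 4, with a log2 fold change of 2.09 (SE 1.45) and an edgeR adjusted p of 0.287. In the columns under 60 M the 3 Olfr2+ columns, at 1.84 to 2.87 CPM, were all below the 5 Olfr2- columns, at 4.95 to 11.8 CPM. Of all genes tested, 5.18% had that arrangement. The log2 fold change there was -0.90 (SE 1.32) with an edgeR adjusted p of 0.825, the reverse sign of the fit over all columns. That fit holds no column of Olfr2+ sample 2. The Olfr2+ columns over 60 M ran from 0.846 to 38.8 CPM, a range that includes the values under 60 M. The cause of the change in sign was not tested. The end of Stab1 overlaps Nt5dc2 on the other strand, Scarb2 overlaps a microRNA gene and Scarb1 and Colec12 overlap gene models. Smart-Seq2 does not mark the strand, so reads there cannot be told apart.

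Cd5l (AIM), which tissue macrophages secrete and which binds oxidized lipid and apoptotic cells, was sparse, at 88, 413 and 18 reads in Olfr2+ samples 2, 3 and 4, against 49, 81 and 41 reads in Olfr2- samples 1, 3 and 4. These are 0.242, 1.51 and 0.267 CPM in Olfr2+, against 1.61, 0.952 and 0.555 CPM in Olfr2-. A single column, 3A of Olfr2+, supplied 398 of the 413 reads of its sample. For Cd5l the log2 fold change was 0.53 (SE 1.28) with an edgeR adjusted p of 0.770, and it was -0.62 with library totals.

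**Figure D2:**
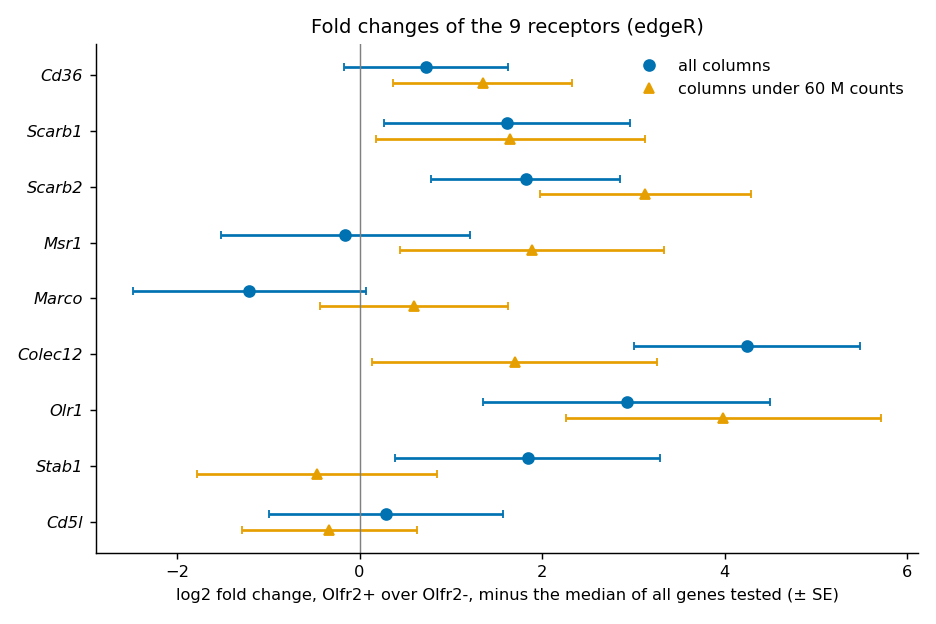
Log2 fold change of each receptor, Olfr2+ over Olfr2-, minus the median of all genes in the same edgeR fit; bars are ± 1 SE. Circles use all columns and triangles only the columns under 60 M counts. Colec12 stands 4.24 above the median over all columns and 1.70 above it in the columns under 60 M, and the sign of Stab1, Cd5l, Marco and Msr1 differs between the fits.

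In the columns under 60 M, which hold samples 3 and 4 of Olfr2+ against samples 1, 3 and 4 of Olfr2-, 0 of the 9 receptors were called. Neither was any of the 29989 genes tested there (0.00% higher and 0.00% lower), although 3127 had an unadjusted p under 0.05 in edgeR. The median log2 fold change of the 9 was 1.22, against -0.43 for all genes, and 7 were positive.

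Per kilobase of exon the order of the receptors could be read within a column set. In the Olfr2+ columns over 60 M the median level was 58.4 CPM per kb for Cd36 (range 35.9 to 108), 26.6 for Colec12 (8.63 to 31.9) and 22.9 for Scarb2 (15.9 to 35.1). The ranges of Colec12 and Scarb2 overlapped, and that of Cd36 lay above both. Scarb1 followed at 3.30 CPM per kb, then Stab1 at 0.876, Olr1 at 0.653, Msr1 at 0.116, Cd5l at 0.0286 and Marco at 0.00543, and the ranges of neighbours among these 6 overlapped. In the Olfr2+ columns under 60 M the order began with Cd36 at 71.1 and Scarb2 at 21.2 CPM per kb, and Msr1 came next at 1.46. There Colec12 stood at 0.659 CPM per kb (0.386 to 9.20), next to Scarb1 at 0.705 and Olr1 at 0.648. The Olfr2- columns had the same first 3, Cd36 at 48.2, Scarb2 at 16.0 and Msr1 at 2.93 CPM per kb, and Colec12 at 1.02. Cd36 and Scarb2 thus led in both labels, and Colec12 joined them in the columns over 60 M.

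How far columns of 1 sample differed from each other depended on the receptor. The spread is given as the highest minus the lowest log2(CPM + 1) among columns of 1 sample and 1 depth set. Scarb2 had a spread of 0.40 to 1.14 in the 5 sets of repeats. Cd36 had 0.70 to 1.32 in 4 sets and 3.52 in Olfr2- sample 4. Colec12 had 0.72 and 1.64 in the sets over 60 M, 3.59 in Olfr2+ sample 4, and 0.95 and 2.52 in Olfr2- samples 3 and 4. Scarb1 reached 5.42 and 5.43 in Olfr2+ samples 2 and 3, Msr1 3.51 and 3.55, and Olr1 5.37 in Olfr2+ sample 4. The median gene with a mean of at least 10 CPM spread by 4.36 and 2.22 over the columns above 60 M of Olfr2+ samples 2 and 3, and by 1.29, 1.40 and 1.29 in Olfr2+ sample 4 and Olfr2- samples 3 and 4. In the 4 columns of Olfr2+ sample 2, all receptors but Scarb1 lay under the median gene. Cd36 and Colec12 lay above it in Olfr2+ sample 4 (Cd36 at 1.32 against 1.29) and in Olfr2- sample 4, while Scarb2 lay under it in all 5 sets.

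**Figure D3:**
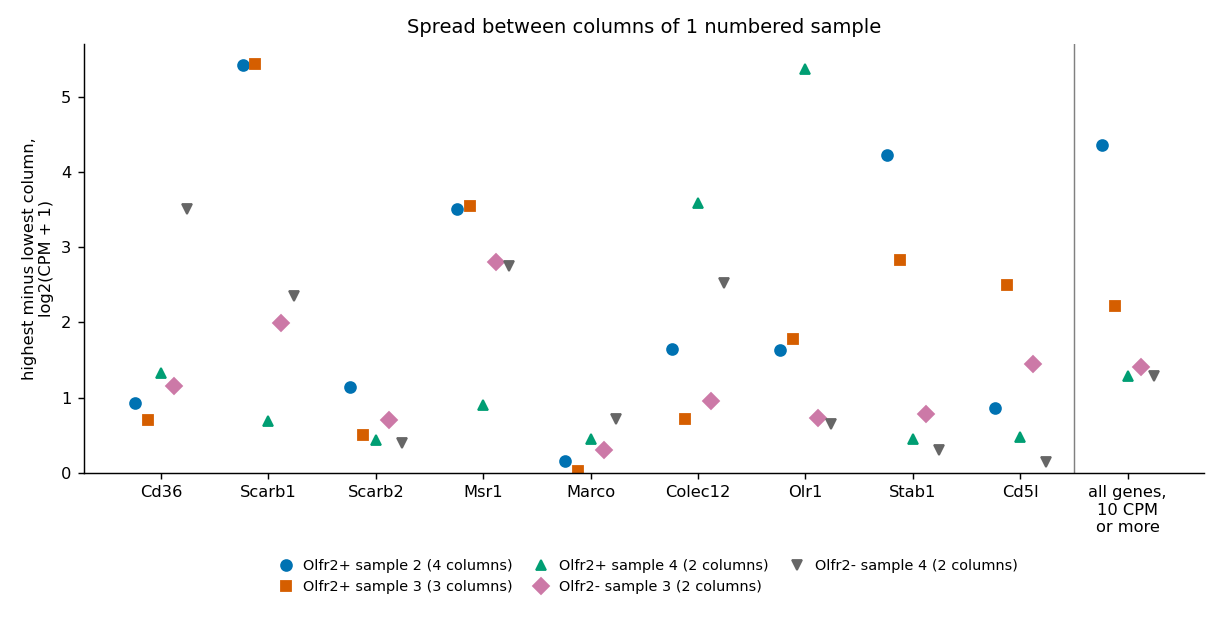
Spread between columns of 1 numbered sample and 1 depth set, as the highest minus the lowest log2(CPM + 1), for each receptor and, right of the line, for the median gene with a mean of at least 10 CPM. Scarb2 stays at or under 1.14 in all 5 sets, while Scarb1 and Olr1 exceed 5 in some. Marco and Cd5l have levels near 0, where this scale compresses differences.

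Sample 3 of Olfr2+ gives the receptors in both depth sets. Cd36 had 209.7, 129 and 165 CPM in 3A, 3B and 3C and 400.4 CPM in 3D. Scarb2 had 138, 196 and 144 CPM in 3A, 3B and 3C and 581.9 CPM in 3D. Msr1 had 12.0, 0.337 and 14.7 CPM in 3A, 3B and 3C and 46.8 CPM in 3D. Marco was also highest in 3D, at 0.325 CPM, against at most 0.0132 CPM in 3A to 3C. Colec12 was lowest in 3D, as given above, and so were Olr1, with 6.69, 19.96 and 5.11 CPM in 3A, 3B and 3C and 1.15 CPM in 3D, and Stab1, with 38.8, 5.05 and 4.61 CPM in 3A, 3B and 3C and 2.01 CPM in 3D.

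Few pairs of receptors moved together across columns. Of the 36 pairs, 0 had a Pearson r above 0.5 and 2 had one below -0.5 (Marco with Colec12, r = -0.605, and Marco with Scarb2, r = -0.540; log2(CPM + 1), 15 columns), and the median r was 0.0312. Within the depth sets Marco with Colec12 had r = -0.0834 under and 0.270 over 60 M, and Marco with Scarb2 had -0.578 under and -0.536 over 60 M. Under 60 M, 2 pairs were above 0.5 (Cd36 with Msr1, 0.744, and Olr1 with Colec12, 0.556) and 3 below -0.5. Over 60 M, 2 were above 0.5 (Scarb1 with Stab1, 0.604, and Cd36 with Stab1, 0.518) and 5 below -0.5. These columns share samples and differ in depth, so r is a description only. The genes most like each receptor were then named, as the 3 with the highest r. They were taken from about 8340 genes with a mean of at least 10 CPM and a symbol that is no gene model name. For Cd36 they were Fyn (0.909), Wbp2 (0.754) and Cdv3 (0.754), and Fyn, a Src family kinase recruited by Cd36, had an r of 0.974 over the 8 columns under 60 M and 0.570 over the 7 columns above. Fyn had 23.2 to 108 CPM in the Olfr2+ columns over 60 M, 23.6 to 147 CPM in those under 60 M and 5.05 to 176 CPM in the Olfr2- columns. For Scarb2 they were Prkacb (0.803), Cdc42se1 (0.758) and Setd3 (0.734). For Scarb1 they were Usp39 (0.839), Abcb8 (0.825) and Rabep2 (0.796), and for Msr1 Mis18a (0.858), Mier3 (0.845) and Hspa4 (0.837). Olr1 was nearest to Terf2 (0.884), Tnpo1 (0.866) and Alox5ap (0.808), and Stab1 to Ogfod1 (0.884), Lims2 (0.869) and Gga2 (0.865). Under 60 M those 18 had an r of 0.586 or more apart from Lims2 (0.339), and over 60 M one of 0.570 or more apart from Cdc42se1 (0.468). Both sets are parts of the 15 columns that picked these genes, so a high r there follows in part from the choice.

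Colec12 was nearest to Col6a2 (0.938), a chain of type VI collagen, Scara5 (0.933), a class A receptor for ferritin, and Gpc6 (0.921), a glypican of the cell surface. Under 60 M the r was 0.879, 0.848 and 0.874, and over 60 M it was -0.168, -0.356 and 0.0115. Markers of fibroblasts, like Colec12, were higher in the columns over 60 M. The 10 fibroblast markers, each detected in every column, summed to 30989 to 40559 CPM in the Olfr2+ columns over 60 M, 2644 to 5110 CPM in those under 60 M and 2216 to 4015 CPM in the Olfr2- columns. Of the 10 fibroblast markers, 9 were called higher in Olfr2+ over all columns, beside 1.12% of all genes, and 0 under 60 M. Within Olfr2+ sample 3 they summed to 35122, 36034 and 33233 CPM in 3A, 3B and 3C and 2644 CPM in 3D. Among the columns over 60 M, 2D had 36984 CPM of fibroblast markers and 75.3 CPM of Colec12, while 3C had 33233 and 279 CPM. Column 4B of Olfr2+, with 80.3 CPM of Colec12, had the highest fibroblast sum of the 8 columns under 60 M, while Olfr2- column 4A, with 55.9 CPM, had 2820 CPM. Macrophage markers summed to 9472 to 17472 CPM in the Olfr2+ columns over 60 M, 5861 to 8213 CPM in those under 60 M and 4458 to 11319 CPM in the Olfr2- columns. Lyz2 was the highest of them, with medians of 7285, 1523 and 809 CPM in the same order, and the markers did not move alike. Within Olfr2+, C1qb had 347 to 1450 CPM over 60 M against 9.04 to 177 under it. Itgam went the other way, at 24.7 to 132 against 298 to 367 CPM. Fcer1g (238 to 517 against 859 to 1184 CPM) and Mpeg1 (30.3 to 412 against 422 to 1174 CPM) did as well. Of the 16 macrophage markers, 4 were called higher over all columns, beside 1.12% of all genes, and 0 under 60 M. Their median log2 fold change over all columns was 2.37, against 4.93 for the fibroblast markers. With library totals 1 macrophage marker and 8 fibroblast markers were called higher, beside 86 of all 24362 genes tested. The part of either cell type in the Colec12 difference was not tested.

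**Figure D4:**
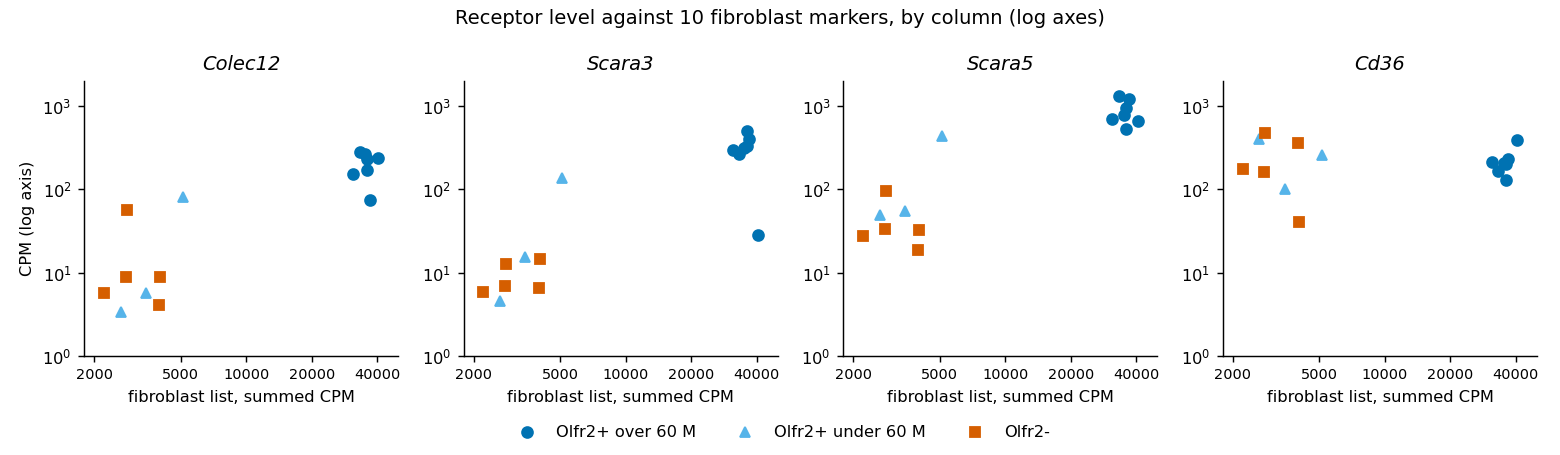
Level of Colec12, Scara3, Scara5 and Cd36 in CPM against the summed CPM of 10 fibroblast markers in each of the 15 columns, both on log axes. Circles are Olfr2+ columns over 60 M counts, triangles Olfr2+ columns under 60 M and squares Olfr2- columns. The 7 deep columns stand at 30989 CPM or more of fibroblast markers; Colec12 lies above the Olfr2- columns there, and Cd36 overlaps them.

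Among 20 other scavenger, lipoprotein and lipid uptake receptors, 2 were called higher in Olfr2+ and 0 lower, beside 1.12% and 0.460% of all genes. The median log2 fold change was 2.12 against 0.24 for all genes, and 0.89 against -0.88 with library totals. In the columns under 60 M, 0 were called, and the median was 0.59 against -0.43 for all genes. Both that passed, Scara3 and Scara5, are class A receptors like Colec12. Scara3, which responds to oxidative stress, had 267, 316 and 68.6 CPM in Olfr2+ samples 2, 3 and 4, against 5.81, 6.67 and 13.5 CPM in Olfr2- samples 1, 3 and 4. On the log2 scale the difference was 5.95 (SE 1.20) with an edgeR adjusted p of 0.0278 over all columns, and 2.92 with one of 0.508 under 60 M. Scara5 had 778, 886 and 223 CPM in Olfr2+ samples 2, 3 and 4, against 27.7, 24.2 and 68.5 CPM in Olfr2- samples 1, 3 and 4, and the log2 difference was 5.28 (SE 1.02) with an edgeR adjusted p of 0.0277 over all columns, and 2.61 with one of 0.482 under 60 M. For both, every Olfr2+ sample was above every Olfr2- sample, as for 6.21% of all genes tested. Both are named because they were called, so this arrangement adds no separate evidence. Both were also highest in samples 2 and 3, which hold the columns with the high fibroblast sums given above. Scara3 did not follow those sums in every column. Column 2A had the highest fibroblast sum, 40559 CPM, but 28.6 CPM of Scara3, while the other columns over 60 M had 267 to 501 CPM. Lrp1, an endocytic receptor for remnant lipoproteins, had 616 ± 219 CPM in Olfr2+ and 316 ± 315 CPM in Olfr2-, and Clec7a (dectin-1), a receptor for fungal glucans, had 278 ± 161 CPM in Olfr2+ and 158 ± 62.9 CPM in Olfr2- (SD, n = 3 each). Neither passed, with edgeR adjusted p of 0.100 and 0.154.

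Of 15 co-receptors and signalling partners of Cd36 and Msr1, 1 was called higher and 0 lower, beside 1.12% and 0.460% of all genes. The median log2 fold change was 1.57 against 0.24 for all genes, and 0.38 against -0.88 with library totals. It was Cd81, a tetraspanin, at 949 ± 781 CPM in Olfr2+ and 70.2 ± 24.7 CPM in Olfr2- (SD, n = 3 each), and its log2 difference was 5.12 (SE 1.06) with an edgeR adjusted p of 0.0283 over all columns, and 0.92 with one of 0.802 under 60 M. Its Olfr2+ samples 2 and 3 had 1553 and 1227 CPM and sample 4 had 67.2 CPM, inside the Olfr2- range of 41.7 to 85.0 CPM. Samples 2 and 3 hold the columns over 60 M, with their fibroblast sums of 30989 to 40559 CPM, whose part in the Cd81 difference was not tested. Cd9, another tetraspanin found with Cd36, had 367 ± 209 CPM in Olfr2+ and 261 ± 306 CPM in Olfr2-, and the integrin chain Itgb1 had 316 ± 91.8 CPM in Olfr2+ and 316 ± 153 CPM in Olfr2- (SD, n = 3 each). Neither passed.

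Of 17 genes that handle the lipid once taken up, 0 were called in either direction, with a median log2 fold change of 1.93 over all columns and 0.85 under 60 M (all genes, 0.24 and -0.43). Lpl, the lipase that frees fatty acids from lipoproteins, had 1208 ± 866 CPM in Olfr2+ and 541 ± 83.3 CPM in Olfr2- (edgeR adjusted p 0.0774). Npc2, which hands cholesterol on inside the lysosome, had 1024 ± 495 CPM in Olfr2+ and 478 ± 102 CPM in Olfr2- (edgeR adjusted p 0.0855). Abcg1, which exports cholesterol to high density lipoprotein, had 231 ± 66.7 CPM in Olfr2+ and 475 ± 410 CPM in Olfr2- (edgeR adjusted p 0.808).

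Of 15 transcription factors known to act on scavenger receptor genes, 1 was called higher and 0 lower, beside 1.12% and 0.460% of all genes. Their median log2 fold change was 1.38 against 0.24 for all genes, and with library totals 0 were called and the median was 0.25 against -0.88. Jun, a subunit of AP-1, had 855 ± 510 CPM in Olfr2+ and 222 ± 48.9 CPM in Olfr2- (SD, n = 3 each), with a log2 fold change of 3.28 (SE 0.87) and an edgeR adjusted p of 0.04997, just inside the threshold. With library totals the log2 fold change of Jun was 1.94 and the edgeR adjusted p 0.118, and under 60 M they were 1.00 and 0.731. Jun had 1326, 924 and 314 CPM in Olfr2+ samples 2, 3 and 4, against 167, 259 and 242 CPM in Olfr2- samples 1, 3 and 4, so it too was highest in the samples with the fibroblast sums above, whose part was not tested. Fos, its AP-1 partner, had 4357 ± 2533 CPM in Olfr2+ and 2851 ± 3218 CPM in Olfr2-, Klf4 had 1114 ± 547 CPM in Olfr2+ and 791 ± 359 CPM in Olfr2-, and Cebpb had 577 ± 815 CPM in Olfr2+ and 1641 ± 208 CPM in Olfr2- (SD, n = 3 each). None of these 3 passed. None of the genes of these lists was called in the columns under 60 M.

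Other cell types could also be present in such a sort, and 0 members of the endothelial, adipocyte, smooth muscle, B cell, neutrophil and dendritic cell lists were called over all columns. The 10 endothelial markers, of interest because endothelial cells make Olr1, Stab1 and Cd36, summed to 2.04 to 765 CPM in the Olfr2+ columns over 60 M, 15.2 to 72.1 CPM in those under 60 M and 39.3 to 213 CPM in the Olfr2- columns. The 9 adipocyte markers, of interest because adipocytes make Cd36, summed to 0.0395 to 203 CPM in the Olfr2+ columns over 60 M, 1.71 to 4.43 CPM in those under 60 M and 1.86 to 16.1 CPM in the Olfr2- columns. The 8 B cell markers summed to 83.7 to 4402 CPM in the Olfr2+ columns over 60 M, 10369 to 15363 CPM in those under 60 M and 2425 to 12666 CPM in the Olfr2- columns. Smooth muscle markers (8) summed to 6.08 to 204, 3.27 to 15.5 and 3.89 to 26.1 CPM in the same order. Neutrophil markers (8, of which 6 were tested over all columns) summed to 94.2 to 370, 661 to 752 and 195 to 748 CPM. The 8 dendritic cell markers summed to 43.2 to 465 CPM in the Olfr2+ columns over 60 M, 378 to 2432 CPM in those under 60 M and 618 to 1248 CPM in the Olfr2- columns. Column 4B, where Olr1 had 136 CPM, had 15.2 CPM of endothelial markers, the lowest of the 8 columns under 60 M, and the highest dendritic cell and B cell sums of all 15 columns, 2432 and 15363 CPM. Single genes made up most of these highest sums. Ccr7 supplied 1751 of the 2432 CPM and Ighm 15284 of the 15363 CPM. Likewise Pecam1 supplied 690 of the 765 CPM of endothelial markers, and Car3 nearly all of the 203 CPM of adipocyte markers. A high sum therefore need not stand for the whole list. The part of these cells in the levels of the receptors was not tested.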

How the data were processed

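Reads per gene were deposited by the authors as whole-number counts, not normalized, for 15 columns. The build GRCm39 and the tools DRAGEN, DESeq2 1.34 and STAR 2.7.1 are listed in the submitters' processing notes with no role for each. For the annotation release and the strand setting, the sources used here give nothing. Per the labels' protocols, cDNA was amplified for 18 cycles and the library for 9 more. Without molecular identifiers, counts are not independent molecules, and the limit of 3 counts covers counting error only. Each title's number was taken to mark a sample and its letter a repeat of it, which the labels do not state, and columns were summed per number (3 against 3; the smallest exact permutation p would be 0.1).

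The test was edgeR's quasi-likelihood F test (edgeR 4.0.16, R 4.3.3; TMM, expression filter by group, Benjamini-Hochberg adjusted p under 0.05 over all genes tested). The scripts were tested on simulated data. Levels are CPM of the column total, and log2(CPM + 1) was used for correlations. Exon lengths are those of GENCODE M21 (GRCm38), which holds 98.9% of the gene identifiers compared without version. A symbol shared by several features (126 symbols) was given to the one with the highest total. Alternatives were DESeq2 1.42.0, limma-voom (limma 3.58.1), a change of scaling, of filter or of replication unit, the depth sets, leaving out each sample, and a block for the sample number. The members, the lists and the division at 60 M were chosen with earlier results of these data known. Named were the 9 members, the genes of each other list that passed (up to 6) and the 3 of highest mean CPM in it, and the 3 genes most like each member; of cell type lists, counts and sums are given.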

Additional observations from a re-analysis of the deposited data

Results flagged for a closer look

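Of 18 sets (9 receptors in the Olfr2+ and in the Olfr2- columns), 7 had 1 column that stood apart by Dixon's gap criterion. Its rate of about 1 set in 20 by chance holds for independent, normally distributed values. The columns are repeats of few samples, so they are not independent. The criterion was also run on CPM without a log scale, and the Olfr2+ sets mix columns over and under 60 M. The share of all genes that meet it was not worked out, so 7 of 18 cannot be compared with chance. Among the 10 Olfr2+ columns, Msr1 at 46.8 CPM and Scarb2 at 581.9 CPM were highest in column 3D, the one column of sample 3 under 60 M. Marco at 0.870 CPM and Olr1 at 136 CPM were highest in column 4B. Cd5l at 4.65 CPM was highest in column 3A. Among the 5 Olfr2- columns, Stab1 at 11.8 CPM was highest in column 3A and Colec12 at 55.9 CPM in column 4A.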

How the results depend on the processing

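Of the fits of single receptors under other settings, 126 kept both direction and side of the threshold, 19 changed sign and 5 became called, all of them Colec12. The count of receptors called, 0 as reported, was 1 with DESeq2, with no filter, with the 15 columns as replicates and with columns summed by library name (adjusted p of Colec12 0.00221, 0.0387, 0.0237 and 0.0237), and 0 to 1 when each sample was left out. All genes called, 385 of 24362 as reported, numbered 6457 of 31189 with DESeq2 and 881 of 42769 with no filter. They numbered 893 of 20411 with 15 columns as replicates and 1568 of 26043 by library name. They numbered 0 with limma-voom (7537 at an unadjusted p under 0.05), with a mean of 10 CPM required (1389), under 60 M (3127) and with the depth set as a covariate (2610), and 6 to 1086 when each sample was left out (6, 105 and 1086 without Olfr2+ samples 2, 3 and 4, and 112, 81 and 120 without Olfr2- samples 1, 3 and 4). The lists of other receptors, partners, lipid handling and transcription factors (20, 15, 17 and 15 genes) had 4 calls as reported. Beside the shares of all genes above, they had 18 with DESeq2, 7 with no filter, 8 with 15 columns and 10 by library name. They had 0 with limma-voom, with a mean of 10 CPM, under 60 M and with the depth covariate, and 0 to 9 when each sample was left out (0 and 9 without Olfr2+ samples 2 and 4, and 2 without Olfr2- sample 3).

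Log2 fold changes that changed sign were, for Cd36, -0.27 with library totals and -0.63 with a mean of 10 CPM. For Msr1 they were -1.01 with library totals, -0.026 with RLE scaling, -1.49 with a mean of 10 CPM and -0.24 with 15 columns, and -0.44 to 0.52 when each sample was left out. Marco had 0.17 under 60 M and 0.019 with the depth covariate, and -2.85 to 0.31 when each sample was left out. Stab1 had -0.90 under 60 M and -0.97 with the covariate. Cd5l had -0.0060 with limma-voom, -0.62 with library totals, -0.76 under 60 M, -0.88 with the covariate, and -0.72 to 0.99 when each sample was left out. The cause was not tested. Scarb1, Scarb2, Olr1 and Colec12 kept a positive sign in all 17 alternatives, and Cd81, Scara3, Scara5 and Jun did so while being called in 11, 10, 11 and 5 of them. With a mean of 10 CPM required, Marco, Stab1 and Cd5l were not among the genes tested.

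The labels share only the numbers 3 and 4 between groups. Deviations from the group mean had r = 0.0127 and -0.0717 in same-numbered samples and -0.175 to 0.200 in the other pairs. With 3 samples per group these r cannot decide whether same-numbered samples share more than a number. No pairing was used in the main fit. With the number as a replicate block 2 genes, 0 receptors and 0 genes of those lists were called. Counts of 3 or fewer in a column limit what can be said of Marco and Cd5l.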
